A study of Mus musculus with 134 samples.

Results

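A set of 10 genes of the LIF-STAT3 and BMP-Id pathways was followed through every expression table of a series on mouse embryonic stem cells (mESCs). The members were chosen by name, with earlier results of these data known. They were Lifr, Il6st, Jak1, Stat3 and Socs3 on the LIF side, and Bmp4, Smad1, Id1, Id2 and Id3 on the BMP side. All 10 had a row among the 25209 genes of the bulk tables, and 9 of them had a row in both single-cell tables. Stat3 was not analysed here in single cells.

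Mouse ES cells stay undifferentiated in serum medium with LIF, a cytokine that binds the LIFR and gp130 receptor pair. The receptors activate JAK kinases, which phosphorylate STAT3, and STAT3 switches on its targets, among them Socs3, whose protein feeds back to block the receptor. BMP ligands, from serum or made by the cells, activate SMAD1 and its relatives, which induce the Id genes, whose proteins hold back differentiation factors.

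The cells of every group were given as E14 mESCs of the 129/Ola strain, a description to be read with the Hprt levels below. They were grown on gelatin in serum with LIF in every group, so no library came from cells without LIF. In the bulk set, 54 libraries formed 27 conditions of 2 libraries each. Total RNA was reverse transcribed with oligo dT and the mRNA/cDNA hybrid was cut directly by the Tn5 transposase ("in vitro tagmentated") at 16 °C or 37 °C for 5, 10, 15 or 30 min, with 25, 50 or 100 ng/µl Tn5, or from 300 ng, 3 ng or 30 pg RNA, and a ligation-based kit served as the conventional method. SET-seq, in which chromatin and RNA are read from the same cells, took the cytoplasmic RNA of 10, 100, 1000 or 10000 cells, or of 100, 1000 or 10000 cells whose nuclei were profiled for H3K4me3 or H3K27me3. The labels of the first set name no antibody, but they do not say that none was used. That set is called SET-seq without antibody below. The Aebp2 knockout clones KO1 and KO2, each made with a different sgRNA and each a single clone, were profiled with the H3K27me3 antibody in 2 experiments each. AEBP2 is a regulatory subunit of PRC2, the complex that writes H3K27me3. Single cells (scSET-seq) came from daughter pairs next to beads carrying Wnt3a, collected at around 12 hours, each cell being proximal or distal to the bead.

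The bulk libraries held between 235040 and 21520982 counts, and 45S ribosomal RNA (Rn45s) took from 1.54% to 84.6% of them, so every level below is in CPM, a gene's count scaled to the library's total without Rn45s. The study calls the libraries of its temperature and time tests biologically independent and the KO libraries of a clone independent experiments. For the other bulk groups the labels do not say that replicates came from separate cultures, so their p-values measure a spread that may be technical. The pluripotency genes Pou5f1, Sox2, Nanog and Zfp42 were above 0 in all 4 Aebp2 KO libraries, and 7 fibroblast markers summed to at most 29.0 CPM and 7 primitive endoderm markers to at most 37.1 CPM in any bulk library. The 7 markers of primed epiblast and early differentiation summed to 56.1 to 111 CPM in the 28 in vitro libraries, mostly from T (46.3 to 111 CPM). They summed to 9.76 to 34.4 CPM in SET-seq with antibody, where T was at most 7.27 CPM. In the KO clones they summed to 38.3 to 55.7 CPM, mostly from Eomes (28.9 to 37.8 CPM). Hprt split the libraries into separate sets. It lay between 66.2 and 485 CPM in the 20 SET-seq libraries of unedited cells and at 181 and 184 CPM in the ligation-based libraries, but between 0 and 1.29 CPM in the 28 in vitro tagmentated libraries and between 0 and 2.14 CPM in the 4 KO libraries. The methods name the line ES-E14TG2a, which is known to lack a functional Hprt gene. Any comparison between those sets therefore also compares Hprt-high with Hprt-low libraries, and what separates the sets cannot be told apart from the genotype or the method.

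Promoters of Socs3, the classical STAT3 target, and of the BMP targets Id2 and Id3 are shown because the results turn on these genes. Each is the 250 bases before the RefSeq start (GRCm38.p6), read 5′ to 3′ on the gene's strand, with capitals on any TTCNNNGAA (the STAT element) or GGCGCC (an element bound by BMP SMADs).
Socs3, chr11:117969367-117969616, minus strand: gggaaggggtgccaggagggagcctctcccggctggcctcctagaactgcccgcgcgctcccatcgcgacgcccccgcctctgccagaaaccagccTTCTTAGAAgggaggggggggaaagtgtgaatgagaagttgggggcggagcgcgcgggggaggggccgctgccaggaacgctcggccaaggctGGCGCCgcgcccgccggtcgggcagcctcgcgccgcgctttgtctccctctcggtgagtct
Id2, chr12:25096093-25096342, minus strand: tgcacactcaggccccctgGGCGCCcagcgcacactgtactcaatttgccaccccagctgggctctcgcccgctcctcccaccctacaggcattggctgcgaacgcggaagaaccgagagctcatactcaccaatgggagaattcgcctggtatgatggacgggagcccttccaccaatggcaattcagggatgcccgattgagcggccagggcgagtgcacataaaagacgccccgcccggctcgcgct
Id3, chr4:136143572-136143821, plus strand: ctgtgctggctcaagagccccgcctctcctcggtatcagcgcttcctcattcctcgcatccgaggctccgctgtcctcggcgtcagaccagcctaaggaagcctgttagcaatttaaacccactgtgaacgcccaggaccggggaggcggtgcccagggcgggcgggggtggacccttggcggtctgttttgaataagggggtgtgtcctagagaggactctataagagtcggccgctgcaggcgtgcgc

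Both elements read the same on either strand and they do not overlap in these windows. Of the 10 members, 9 matched a RefSeq promoter, Lifr with 2 starts. Among these 10 windows TTCNNNGAA occurred in 1, that of Socs3, where its first base lay 154 bases before the start, and 7.02% of all 32851 promoters held it. GGCGCC occurred in 4 of the 10 windows, those of Jak1, Socs3, Id2 and one start of Lifr, against 9.59% of all promoters. In the Id3 window neither string was found, which says only that these letters are not in this window.

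In the mm9 annotation that matches the files' build, the members lay on 8 chromosomes. Lifr was on chr15:7079572-7147489 and Il6st on chr13:113254278-113297068, both on the plus strand. Stat3 (chr11:100748120-100800854) and Socs3 (chr11:117827401-117830680) were on the minus strand of the same chromosome, and Jak1 (chr4:100824579-100937887, minus) and Id3 (chr4:135699737-135701307, plus) also shared a chromosome. Bmp4 was at chr14:47003200-47010344, Id2 at chr12:25778664-25780957 and Smad1 at chr8:81862296-81923327, all minus, and Id1 at chr2:152561987-152563146, plus. Counting was over exons and without strand. Jak1 shared 7.49% of its exon bases with Raver2 and Bmp4 shared 3.98% with Gm15217, so their reads cannot be fully told apart from those neighbours, and the other 8 members shared none.

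Across the 27 conditions the LIF receptor chain, the kinase and the transcription factor were present in nearly every library, whereas the Id genes ranged from absent to high. On a per-length scale (RPKM, the CPM divided by exon length in kilobases) in the ligation-based libraries, the order was Id3 at 54.2, Socs3 at 52.3, Stat3 at 44.6, Id1 at 27.7, Bmp4 at 27.1, Il6st at 21.9, Jak1 at 16.3, Id2 at 13.4, Lifr at 11.4 and Smad1 at 6.10 (means of 2 libraries). In the 12 SET-seq libraries with antibody the order changed at the top, with a median level of 159 RPKM for Id3, 43.2 for Id1, 36.6 for Id2 and 36.4 for Stat3, then 15.4 for Socs3. In the 8 in vitro libraries at 37 °C the medians were 22.5 RPKM for Stat3 and 26.1 for Socs3, but 0.296 for Id1, 2.01 for Id2 and 3.41 for Id3.

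**Figure D1:**
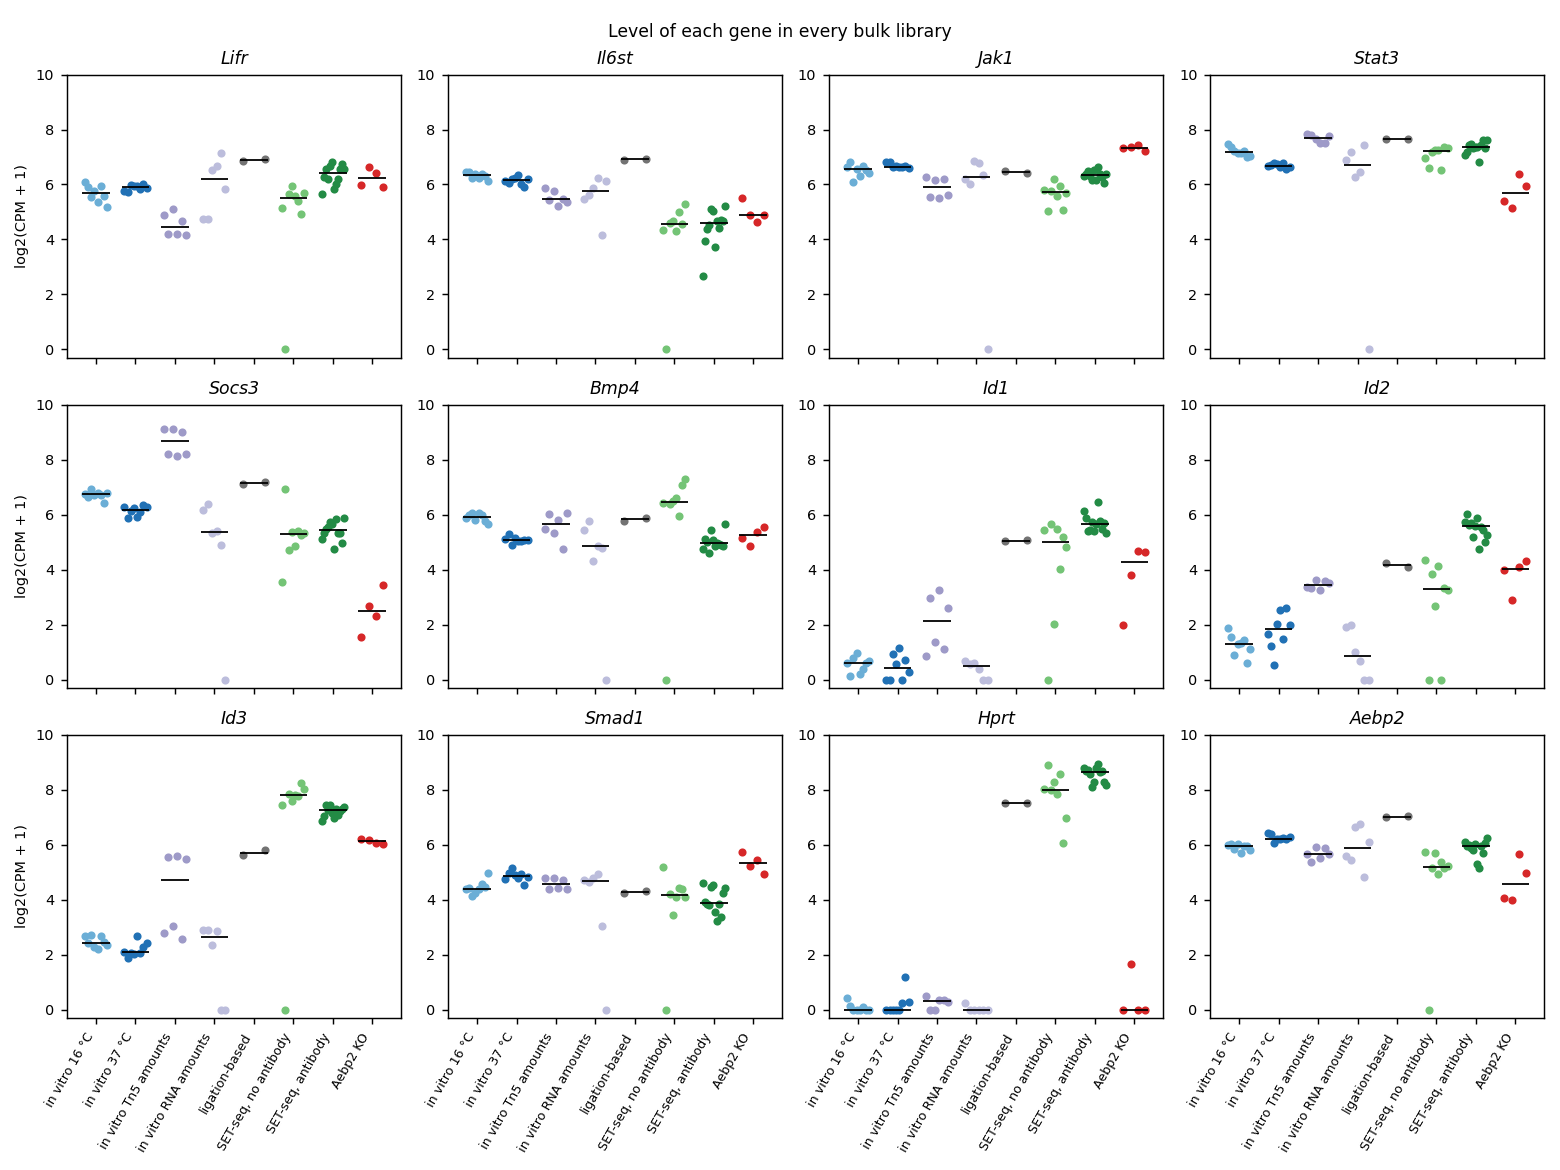
Level of the 10 members, Hprt and Aebp2 in every bulk library, as log2(CPM + 1) on the vertical axis, with libraries grouped by kind on the horizontal axis; points are libraries and bars are medians. Id1 and Id3 are low in the in vitro libraries of temperature and RNA amount and higher in part of the Tn5 series, and Socs3 lies between 1.96 and 9.79 CPM in the 4 Aebp2 KO libraries, lower than in every other library but 1 of 30 pg RNA, at 0.

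When the 27 conditions were ordered by mean level, most neighbours could not be told apart, because their 2 libraries overlapped. Of the 26 neighbouring pairs in that order, 25 overlapped for Jak1 and Smad1, 24 for Lifr, 23 for Il6st and Bmp4, 22 for Stat3 and Id1, 20 for Socs3, and 18 for Id2 and Id3. The highest condition was the ligation-based method for Lifr (117 ± 4.38 CPM, SD, n = 2) and Il6st (119 ± 0.456), KO2 for Jak1 (161 ± 16.6), and 25 ng/µl Tn5 for Stat3 (225 ± 7.33). The lowest for Stat3 was KO1, at 37.7 ± 4.94 CPM (SD, n = 2).

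The genes whose condition means followed a member most closely were named by Pearson's r of log2(CPM + 1) over the 27 conditions, a description in which conditions share RNA, method and depth. The closest to Id1 was Tubb3 (r = 0.976), which was also the closest to Id3 (r = 0.968), and Id1 itself was among the 3 closest to both Id2 (r = 0.912) and Id3 (r = 0.953). For Socs3 the closest were Usp21 (r = 0.877), Txnip (r = 0.868) and Klf4 (r = 0.866), for Stat3 Get1 (r = 0.876), for Jak1 Zmym4 (r = 0.936), for Lifr Esyt2 (r = 0.928), for Il6st R3hdm2 (r = 0.919), for Bmp4 Clcn7 (r = 0.898) and for Smad1 Crebbp (r = 0.885). Between members, Il6st ran opposite to Id1 (r = -0.73) and to Id3 (r = -0.71).

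The comparison of Aebp2 KO with unedited cells asked which genes differ between clones edited in this PRC2 subunit and unedited libraries. In bulk libraries fewer cells with a transcript and less of it per cell cannot be told apart. The wild-type side was the H3K27me3 co-assay from 10000 cells, the same antibody as the KO libraries. Wild type, KO1 and KO2 were separate groups in the fit, so its SEs and p-values measure the spread between libraries of a group. They do not cover the spread between clones. Aebp2 itself, the targeted gene, stood at 65.5 and 76.0 CPM in wild type, at 15.7 and 15.0 in KO1 and at 49.7 and 30.2 in KO2. Its log2 fold change was -1.39 ± 0.22 (SE, adjusted p = 7.64e-06 by edgeR's quasi-likelihood test), although KO2 stayed within the 0 to 52.2 CPM seen in SET-seq without antibody, and counts over the whole gene do not read the edited site. Hprt was at 310 and 291 CPM in wild type and at 0, 2.14, 0 and 0 CPM in KO. Stem cell markers moved as well: Tdgf1 (-1.03 ± 0.11), Zfp42 (-0.76 ± 0.11), Nanog (-0.66 ± 0.11) and Fgf4 (-0.50 ± 0.12) were called lower in KO, Pou5f1, Sox2, Esrrb and Dppa5a were not called, and Eomes, a gene of early differentiation, was called higher (1.66 ± 0.28). Eomes was taken from the list of 7 such markers. By medians in KO against SET-seq with antibody, Pax6 (3.61 against 0.582 CPM), Fgf5 (0.980 against 0) and T (4.16 against 3.06) were higher. Mixl1 (2.05 against 2.72), Neurod1 (2.47 against 4.37) and Hand1 (0.491 against 0.860) were lower. The part of cell state in the results on the members was not tested. Rn45s took 48.8% to 56.7% of the KO counts and 15.2% to 34.2% of those of SET-seq with antibody.

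On the LIF side, the kinase gene was higher and the transcription factor and its feedback target were lower in the KO libraries. Socs3 had 30.7 and 58.6 CPM in wild type, 1.96 and 5.35 in KO1, and 3.98 and 9.79 in KO2. Those KO values rest on 2, 5, 4 and 11 reads, yet all 4 lay below both wild-type libraries, and Socs3 fell by 3.06 ± 0.37 on the log2 scale (adjusted p = 1.63e-07). Stat3 had 162 and 196 CPM in wild type, 41.2 and 34.2 in KO1, and 81.5 and 60.5 in KO2. Again no KO library reached wild type, and Stat3 fell by 1.66 ± 0.16 (adjusted p = 4.81e-09). Jak1 moved the other way, with 64.6 and 82.6 CPM in wild type, 158 and 164 in KO1 and 173 and 149 in KO2. Its log2 fold change was 1.23 ± 0.15 (adjusted p = 1.6e-07).

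The receptor chains did not pass the test. Lifr, which binds LIF, had 106 and 94.6 CPM in wild type against 62.8 and 98.4 in KO1 and 85.5 and 58.7 in KO2. The groups overlapped, at a log2 fold change of -0.25 ± 0.18 (adjusted p = 0.248), and leaving out the KO2 library of replicate 1 brought Lifr to -0.37 with an adjusted p of 0.0493. Il6st, which encodes the shared signalling chain gp130, had 24.2 and 36.6 CPM in wild type and 44.1, 28.9, 23.9 and 28.5 in the KO libraries. Its log2 fold change was 0.10 ± 0.25 (adjusted p = 0.74).

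On the BMP side, the SMAD rose and its Id targets fell against this wild type, while the ligand did not pass. Smad1 had 17.8 and 20.4 CPM in wild type, 52.0 and 36.4 in KO1 and 42.7 and 29.4 in KO2, with no overlap and a log2 fold change of 1.17 ± 0.26 (adjusted p = 0.00039). Id3 had 155 and 165 CPM in wild type and between 64.1 and 73.6 CPM in the 4 KO libraries, a fall of 1.08 ± 0.14 on the log2 scale (adjusted p = 7.41e-07). Id1 had 50.9 and 39.0 CPM in wild type, 2.94 and 12.8 in KO1 and 24.9 and 24.0 in KO2. It fell by 1.52 ± 0.30 (adjusted p = 0.000117). Id2 had 31.5 and 37.2 CPM in wild type, 14.7 and 6.42 in KO1 and 15.9 and 18.7 in KO2. It fell by 1.21 ± 0.29 (adjusted p = 0.000942), and its call was lost with DESeq2 (adjusted p = 0.0539) and without the wild-type library of replicate 2 (adjusted p = 0.0647). Bmp4, the ligand, had 28.3 and 49.8 CPM in wild type and 27.8 to 45.4 CPM in KO, at -0.03 ± 0.23 (adjusted p = 0.907). Against SET-seq of 10000 cells without antibody, with 133 and 157 CPM, Bmp4 was called lower in KO, at -2.11 ± 0.18 (adjusted p = 7.03e-07).

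**Figure D2:**
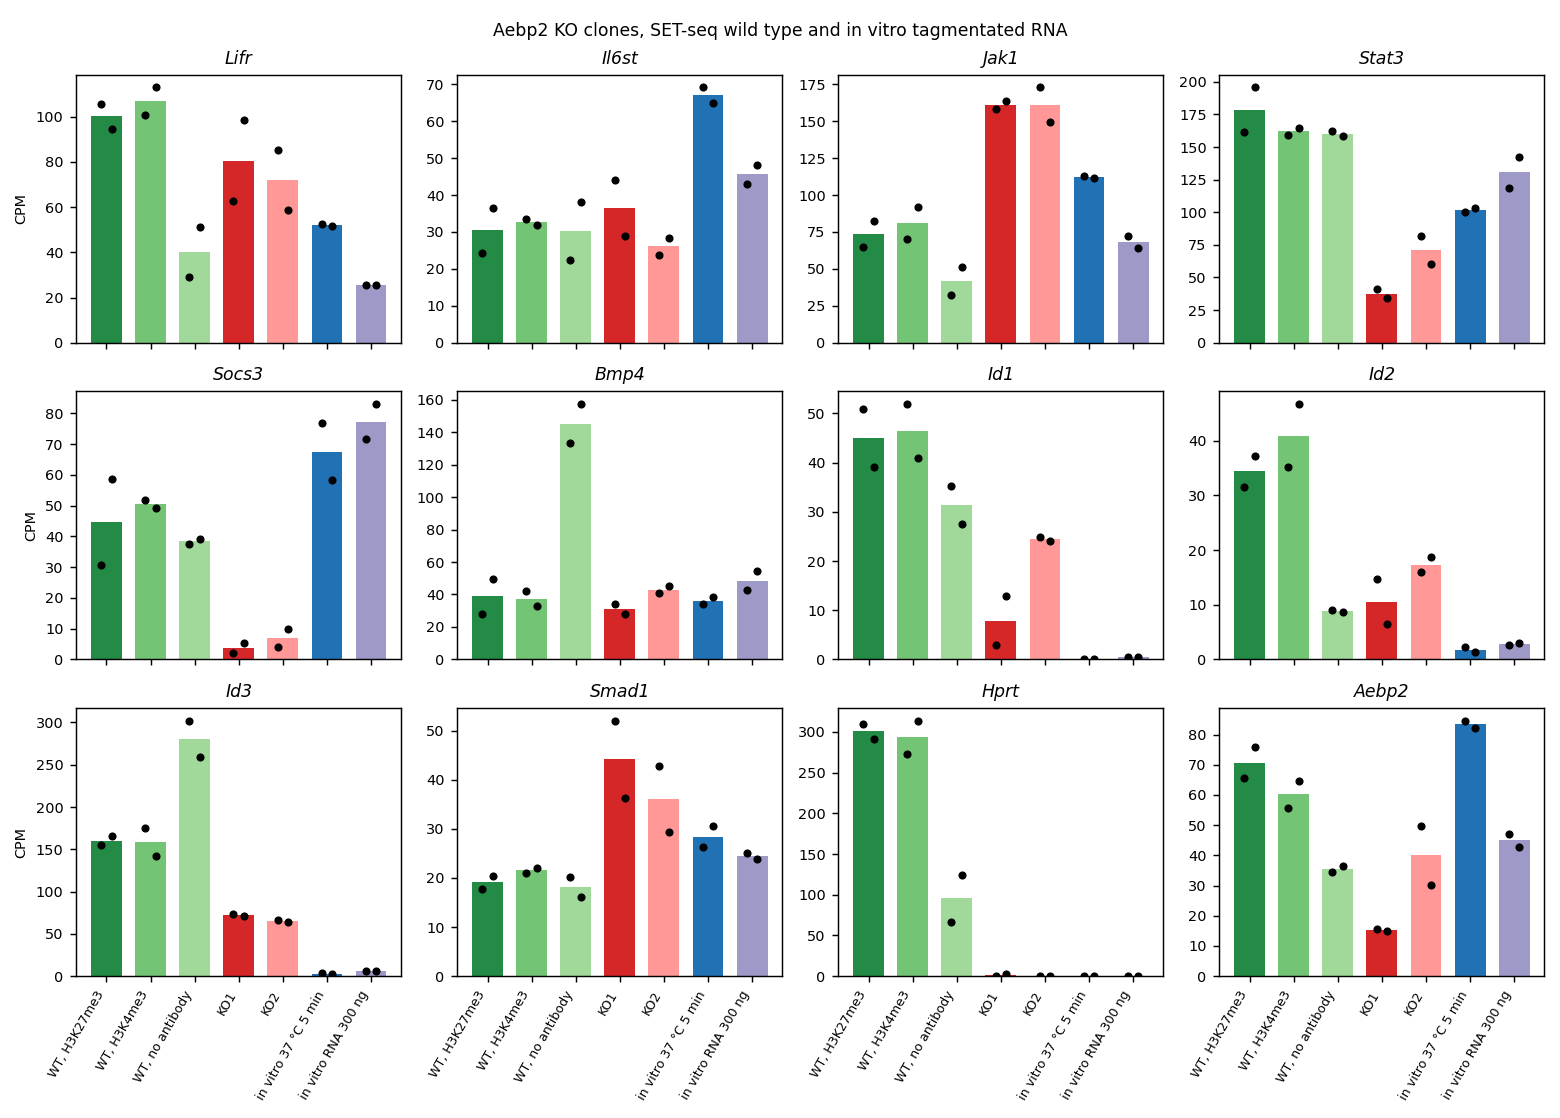
CPM of each member, Hprt and Aebp2 (vertical axis, from 0) in the wild-type SET-seq libraries of 10000 cells, the KO1 and KO2 clones and in vitro tagmentated total RNA; bars are means and points the 2 libraries of each group. Socs3 and Stat3 are lower and Jak1 is higher in both clones than in every other group shown, whereas the Id genes of the clones lie between SET-seq with antibody and in vitro RNA.

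In all, 7 of the 10 members were called, 2 higher and 5 lower, where 57.3% of the 9523 genes tested were called, 27.8% higher and 29.5% lower, and 7 of 10 members had KO and wild-type libraries that did not overlap, where 57.7% of 10120 genes did not. The member median was -0.66 on the log2 scale against -0.02 over all genes tested. The share of members called was thus near that of all genes, and the sizes and directions of single members carry the description.

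Because the KO libraries were Hprt-low and their wild type Hprt-high, the same contrast was run against other unedited libraries. Socs3, Stat3 and Jak1 kept their direction and their call against each of them. Socs3 fell by 3.06 against SET-seq of 10000 cells without antibody, by 3.70 against in vitro RNA at 37 °C for 5 min, and by 4.07 against in vitro RNA of 300 ng, and Stat3 fell by 1.77, 0.95 and 1.47 in the same order. For Jak1 the log2 fold changes were 1.83, 0.54 and 1.12. Several other members depended on the reference, within the Hprt-high libraries too. Against SET-seq without antibody, Lifr was called higher in KO at 0.81 ± 0.26 (adjusted p = 0.0142), Id2 turned to 0.49 ± 0.38 without a call (adjusted p = 0.27), and Id1 (-1.33 ± 0.34) and Id3 (-2.17 ± 0.16) stayed lower. Lifr was also higher against 300 ng, at 1.44 ± 0.22, where Bmp4 was lower, at -0.54 ± 0.22 (adjusted p = 0.0273). Against the Hprt-low in vitro libraries all 3 Id genes turned direction: Id3 was higher in KO by 4.48 ± 0.42 (37 °C, 5 min) and 3.29 ± 0.25 (300 ng), Id2 by 2.85 ± 0.74 and 2.10 ± 0.43, and Id1 by 4.51 ± 0.60 against 300 ng. Id1 had no read in either 37 °C 5 min library, and its pooled level in KO, 16.4 CPM, was at least 9.10-fold higher than the level of 3 reads over those libraries. Il6st turned too, to -1.09 ± 0.26 and -0.68 ± 0.23. Smad1 stayed higher, at 0.51 ± 0.30 (adjusted p = 0.154) and 0.58 ± 0.24 (adjusted p = 0.03). The in vitro libraries used total and not cytoplasmic RNA, so these contrasts also compare RNA preparations.

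**Figure D3:**
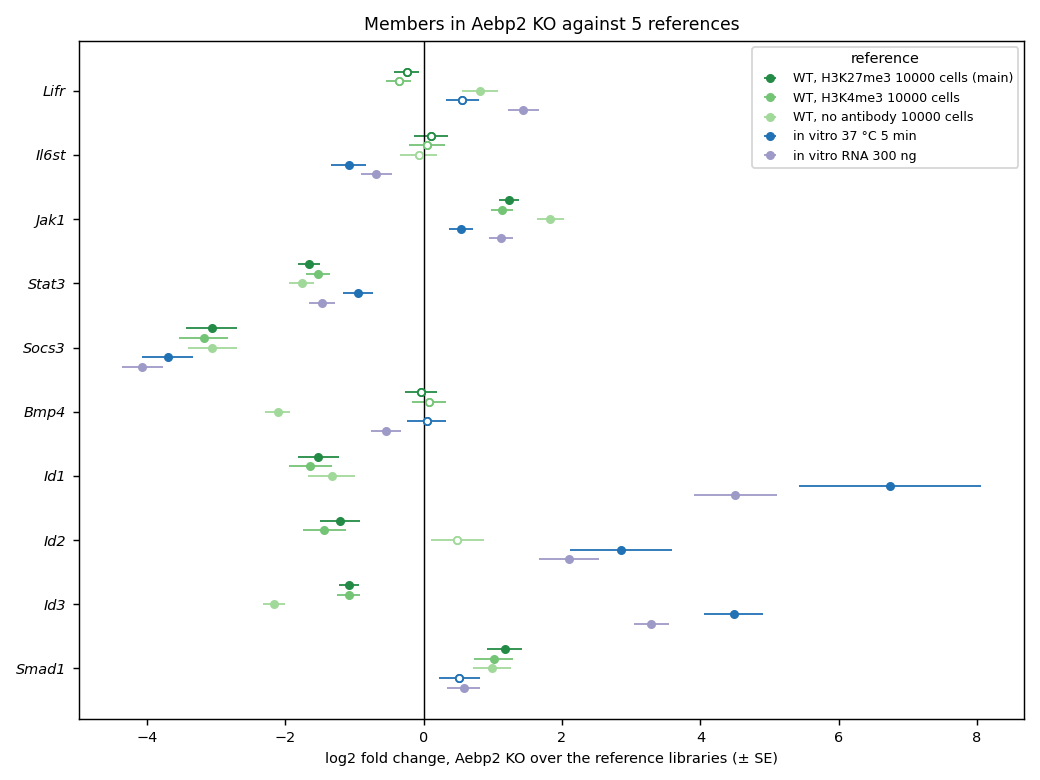
Log2 fold change (horizontal axis, ± SE) of the 10 members in Aebp2 KO over each of 5 reference groups of 2 libraries; open points missed an adjusted p of 0.05. Socs3 and Stat3 lie below 0 and Jak1 above 0 for all 5 references, and Id1, Id2 and Id3 lie on opposite sides of 0 for SET-seq with antibody and for in vitro RNA.

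Beside the 12 unedited SET-seq libraries with antibody, 7 members did not overlap with the KO clones, where 29.9% of genes did not. Set beside all 20 unedited SET-seq libraries, 3 members did not overlap, where 15.5% of genes did not. Jak1 lay at 149 to 173 CPM in KO against 31.9 to 98.4 CPM in SET-seq, Stat3 at 34.2 to 81.5 against 92.1 to 198 CPM, and Socs3 at 1.96 to 9.79 against 10.8 to 122 CPM. The nearest Socs3 value, 10.8 CPM, came from a library of 10 cells.

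The wider pathways were followed with 2 lists of 25 genes each. Of the LIF-STAT3 list, 19 genes were tested in the KO comparison, of which 8 fell and 4 rose, beside 29.5% and 27.8% of all genes, and the median was 0.09 on the log2 scale against -0.02 over all genes. The 4 called genes with the largest differences all fell, with log2 fold changes of -3.44 ± 0.26 for the STAT3 target Bcl3, -3.23 ± 0.34 for the AP-1 gene Junb, -2.56 ± 0.13 for the pluripotency factor Klf4 and -1.74 ± 0.28 for the homeobox gene Gbx2. Of the BMP-SMAD list, 16 genes were tested, 5 rose and 2 fell, with a median of 0.21. Id4, another Id gene, rose by 2.71 ± 0.63, the TGF-beta family ligand Gdf3 stood at -1.86 ± 0.14, and the receptors Bmpr2 and Acvr2b rose by 1.15 ± 0.21 and 0.98 ± 0.16.

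The clones were also compared with each other. Stat3 was lower in KO1 (41.2 and 34.2 CPM) than in KO2 (81.5 and 60.5 CPM), a log2 difference of -1.001 ± 0.24 (adjusted p = 0.00828), and Id1 was lower in KO1 (2.94 and 12.8 CPM) than in KO2 (24.9 and 24.0 CPM), at -1.76 ± 0.47 (adjusted p = 0.0162). The 2 libraries of each clone did not overlap with those of the other for either gene. These 2 of 10 members were called where 11.8% of genes were, 5.88% higher and 5.89% lower in KO1, and the member median was -0.34 against -0.01. Aebp2 differed the same way, at -1.46 ± 0.34 (adjusted p = 0.00561), and Stat3 lost its call without the KO1 library of replicate 2 (adjusted p = 0.113), Id1 without that of replicate 1 (adjusted p = 0.203) and with DESeq2 (adjusted p = 0.0686). Against wild type, Id1 stood at -2.40 ± 0.41 in KO1 (adjusted p = 2.93e-05) but at -0.65 ± 0.32 in KO2, which did not pass (adjusted p = 0.0983). The other 8 members did not pass between the clones, at -1.06 ± 0.76 for Socs3, -0.79 ± 0.45 for Id2, -0.57 ± 0.31 for Bmp4, -0.10 ± 0.17 for Jak1, 0.05 ± 0.20 for Id3, 0.06 ± 0.24 for Lifr, 0.21 ± 0.30 for Smad1 and 0.38 ± 0.33 for Il6st. Of the LIF-STAT3 list 4 of 19 genes were called, with Myc at -1.01 ± 0.29 and Socs2 at 0.76 ± 0.23 in KO1 over KO2, and of the BMP-SMAD list 4 of 16, with Dusp9 at -1.55 ± 0.26 and Smad5 at 0.91 ± 0.28.

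The temperature series asked how the tagmentation reaction itself changes what is read from the same kind of RNA. Bmp4, Socs3 and Stat3 were read lower at 37 °C than at 16 °C in all libraries, and 3 members without overlap compare with 31.1% of genes. Bmp4 ranged from 49.6 through a median of 60.01 to 66.5 CPM in the 8 libraries at 16 °C and from 28.4 through 32.7 to 38.4 CPM in the 8 at 37 °C, a fall of 0.83 ± 0.08 on the log2 scale (adjusted p = 7.38e-10). Socs3 ranged from 84.1 through 106 to 122 CPM at 16 °C and from 58.3 through 71.2 to 81.1 CPM at 37 °C, and fell by 0.55 ± 0.08 (adjusted p = 3.86e-07). Stat3 ranged from 127 through 144 to 176 CPM at 16 °C and from 93.3 through 102 to 109 CPM at 37 °C, and fell by 0.46 ± 0.06 (adjusted p = 7.83e-08).

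Smad1, Lifr and Jak1 were read higher at 37 °C, though their libraries overlapped between temperatures. At 5 min alone none of the 3 was called. Smad1 went from a median of 20.2 to 28.2 CPM (0.52 ± 0.11, adjusted p = 0.000151), Lifr from 50.1 to 58.6 CPM (0.25 ± 0.09, adjusted p = 0.0205) and Jak1 from 92.6 to 99.2 CPM (0.22 ± 0.07, adjusted p = 0.00858). Lifr and Jak1 lost their calls without the replicate 1 libraries (adjusted p = 0.175 and 0.236), and at 5 min alone Smad1 had an adjusted p of 0.107, Jak1 of 0.417, and Lifr turned to -0.17 ± 0.19. Il6st, with medians of 80.2 and 70.5 CPM, did not pass (-0.13 ± 0.07, adjusted p = 0.101), nor did Id3, with 4.43 and 3.25 CPM (-0.36 ± 0.21, adjusted p = 0.131). Id1 and Id2 fell under the filter on low counts, with at most 1.20 and 5.15 CPM in any of the 16 libraries, so 8 members were tested and 6 called, where 65.3% of 11292 genes were called, 32% higher and 33.2% lower. Rn45s also moved with temperature, from 11.8% to 25.1% of counts at 16 °C and from 33.0% to 40.7% at 37 °C, and its part in the result was not tested.

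**Figure D4:**
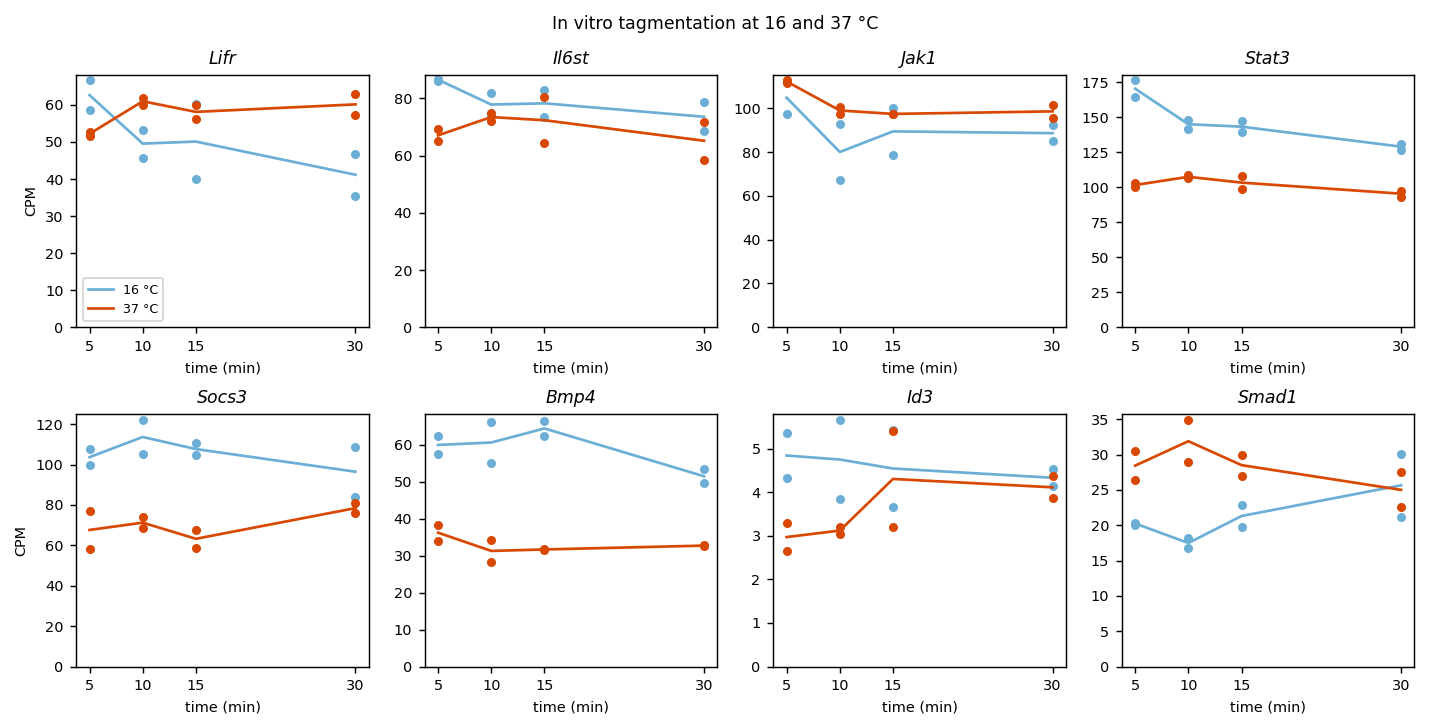
CPM of the 8 members tested (vertical axis, from 0) against tagmentation time in minutes at 16 °C and 37 °C; points are libraries and lines join the means of 2. The Bmp4, Socs3 and Stat3 libraries at 37 °C lie below those at 16 °C at every time, and Id3 stays between 2.65 and 5.65 CPM throughout.

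In the wider lists, 10 of 21 LIF-STAT3 genes and 14 of 21 BMP-SMAD genes were called by temperature, beside 65.3% of all genes. The kinase Tyk2 fell by 0.86 ± 0.12 and the pluripotency factor Sall4 rose by 0.83 ± 0.06, while the BMP antagonist Chrd fell by 1.72 ± 0.23 and Id4 rose by 1.28 ± 0.12. Of the BMP-SMAD list 10 fell and 4 rose, with a median of -0.26 against -0.02 over all genes.

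The amount of Tn5 was varied in 3 steps, and for 8 of the 10 members the libraries of replicate 1 and replicate 2 did not overlap over the 3 amounts, where 59% of 10065 genes did not. Id3 had 6.004, 7.31 and 4.96 CPM in replicate 1 at 25, 50 and 100 ng/µl and 45.9, 47.5 and 43.8 CPM in replicate 2. Id1 followed, with 0.819 to 1.60 CPM in replicate 1 and 5.11 to 8.52 CPM in replicate 2, but Id2 did not, with 9.28 to 11.4 CPM and 8.65 to 10.5 CPM. Socs3 went the other way, with 550, 555 and 517 CPM in replicate 1 and 298, 282 and 292 CPM in replicate 2. Both sets of Socs3 values lay above the 146 CPM that was the highest in any library outside the Tn5 series. Stat3, like Id2, overlapped, at 230, 199 and 180 CPM in replicate 1 and 220.1, 182 and 216 CPM in replicate 2, so its amounts differed by more than its replicate means.

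With less RNA the reads of the members thinned out. At 30 pg, Id1, Id2 and Id3 had no read in either library, and in replicate 2 only Lifr (18 reads, 55.6 CPM) and Il6st (22 reads, 68.0 CPM) of the 10 members had any. That library held 323449 counts outside Rn45s, where 3 reads correspond to 9.27 CPM, so lower levels were not detectable. Stat3, Jak1 and Socs3, without a read there, had means far above this floor at 300 ng (131, 68.2 and 77.4 CPM). What led to their absence was not tested. In replicate 1 at 30 pg, Stat3 still stood at 172 CPM and Jak1 at 80.2 CPM. At 3 ng the LIF receptor chain Lifr stood at 90.3 and 102 CPM, above its 25.5 and 25.7 CPM at 300 ng, while Socs3 stood at 39.8 and 41.7 CPM against 71.7 and 83.1 CPM. With cells the low end was alike: SET-seq of 10 cells gave 173 CPM of Id3 in replicate 1 and 0 in replicate 2, and replicate 2 had reads of Jak1 (6), Stat3 (18) and Socs3 (23) but of no other member.

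The ligation-based method was set against in vitro tagmentation (37 °C, 5 min), the condition the study chose. By the methods, ligation-based libraries came from poly-A selected, fragmented RNA with random primers, and the tagmentated ones from oligo dT priming. The sequencing platform and read length differed too, so the effect of tagmentation cannot be told apart from these steps. The largest differences were in the Id genes. Id1 had 31.9 and 32.5 CPM by ligation and no read in either tagmentated library, at least 17.9-fold higher against 3 reads over the group. Id3 had 48.7 and 54.7 CPM against 3.29 and 2.65 CPM, a ratio of pooled reads of 17.2 with a counting interval of 7.35 to 53.0 (exact, 95%). Id2 had 18.1 and 16.04 CPM against 2.20 and 1.33 CPM, on 3 reads in all, a ratio of 9.48 with an interval of 3.23 to 46.1. All intervals cover counting error only.

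The other members differed by less. Lifr was higher by ligation by 0.93 ± 0.16 on the log2 scale (114 and 121 against 52.7 and 51.7 CPM), Socs3 by 0.82 ± 0.15 (139 and 146 against 76.9 and 58.3 CPM), Stat3 by 0.75 ± 0.12 (202 and 201 against 99.9 and 103 CPM) and Il6st by 0.59 ± 0.15 (119 and 120.0 against 69.2 and 65.0 CPM). Smad1 and Jak1 were lower, at -0.86 ± 0.25 (17.9 and 18.8 against 26.4 and 30.5 CPM) and -0.61 ± 0.13 (88.1 and 85.1 against 113 and 111 CPM). Bmp4 did not pass, at 53.7 and 58.0 against 34.0 and 38.4 CPM (0.40 ± 0.20, adjusted p = 0.0968). The 7 members higher and 2 lower by ligation stand beside 58.1% of 12282 genes called, 30.3% higher and 27.9% lower, and the member median was 0.79, also with Id1 at its bound, against 0.13. The Il6st call was lost without either ligation-based library (adjusted p = 0.0642 and 0.0703) and the Smad1 call without the tagmentated library of replicate 2 (adjusted p = 0.0581). Against tagmentation at 16 °C for 5 min Stat3 did not differ beyond its error, at 0.02 ± 0.06 (adjusted p = 0.801), and against all 16 libraries of temperature and time Socs3 lost its call, at 0.42 ± 0.21 (adjusted p = 0.0752). Hprt differed between these libraries as given above, and its relation to these differences was not tested. Among 23 LIF-STAT3 genes 8 were higher and 6 lower by ligation, led by the kinase gene Pim3 (2.90 ± 0.32) and Myc (2.85 ± 0.30), and among 21 BMP-SMAD genes 9 were higher and 7 lower, led by Bmp7 (-2.58 ± 0.26), the phosphatase gene Dusp9 (2.47 ± 0.29), Id4 (-2.41 ± 0.29) and the decoy receptor Bambi (-2.02 ± 0.34).

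SET-seq from 10000 cells without antibody was compared with the same in vitro libraries. Id3 was at 302 and 259 CPM in SET-seq against 3.29 and 2.65 CPM, a ratio of pooled reads of 94.0 with an interval of 40.2 to 289.7. Id1, at 35.2 and 27.5 CPM, was at least 17.6-fold higher against 3 reads over the group. Bmp4 was higher as well, at 133 and 157 against 34.0 and 38.4 CPM (2.08 ± 0.22 on the log2 scale, adjusted p = 6.82e-05). Id2 was called on 8.98 and 8.67 CPM against the 3 reads above (adjusted p = 0.0141) and lost the call with DESeq2 (adjusted p = 0.106) and without the tagmentated library of replicate 2 (adjusted p = 0.0625). On the LIF side Jak1 was lower in SET-seq, at -1.36 ± 0.24 (32.4 and 51.0 against 113 and 111 CPM), Il6st at -1.09 ± 0.27 (22.4 and 38.1 against 69.2 and 65.0 CPM) and Socs3 at -0.74 ± 0.23 (37.7 and 39.3 against 76.9 and 58.3 CPM), and Stat3 was higher by 0.74 ± 0.19 (162 and 158 against 99.9 and 103 CPM). The Stat3 call was lost without either tagmentated library and the Socs3 call without that of replicate 1 (adjusted p = 0.204) and with DESeq2 (adjusted p = 0.14). Lifr (-0.32 ± 0.29) and Smad1 (-0.55 ± 0.31) did not pass. The 8 members called stand beside 49.8% of 10844 genes, 24.9% in each direction, with a member median of 0.21, also with Id1 at its bound, against 0.01.

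In that comparison 14 of 23 LIF-STAT3 genes were called, 9 higher and 5 lower in SET-seq, beside 49.8% of all genes (24.9% each way), among them the STAT target Cish (2.57 ± 0.78) and Jak2 (-2.11 ± 0.58). Of 19 BMP-SMAD genes 13 were called, 4 higher and 9 lower, with Id4 at -4.74 ± 0.51, the reverse of Id1 and Id3, and Gdf3 at 2.59 ± 0.21. Comparisons with the in vitro libraries share those libraries, and so their values are given side by side only.

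Within SET-seq, libraries whose labels name an antibody differed in several members from those whose labels name none. Id2 lay between 25.8 and 63.4 CPM in the 12 with antibody and between 0 and 19.2 CPM in the 8 without, and was the 1 member of 10 with no overlap, where 3.88% of genes had none. At 10000 cells Bmp4 was at 28.3, 49.8, 42.2 and 32.8 CPM with antibody and at 133 and 157 CPM without, and Id3 at 155, 165, 176 and 142 CPM against 302 and 259 CPM. At this cell number 6 of 10 members did not overlap, beside 65.9% of genes. By the methods, the RNA was taken off the nuclei before the antibody was added. The labels do not say whether these libraries were made together, and what sets them apart was not tested.

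Between the antibodies no member passed the test. In the 12 co-assay libraries, with cell number in the fit, the log2 fold changes of H3K27me3 over H3K4me3 lay between -0.48 ± 0.23 for Smad1 and 0.30 ± 0.26 for Il6st, with Id2 at -0.31 ± 0.17, Lifr at -0.07 ± 0.12, Socs3 at -0.05 ± 0.19, Jak1 at -0.04 ± 0.11, Id3 at -0.01 ± 0.09, Bmp4 at 0.04 ± 0.16, Stat3 at 0.06 ± 0.09 and Id1 at 0.07 ± 0.15. No gene of 10830 was called by edgeR (0%) or by DESeq2, and 347 had an unadjusted p under 0.05, none of them a member. On simulated counts this comparison recovered 64.1% of 2-fold and 83.6% of 4-fold changes among its 10830 genes.

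In single cells the members were sparse. Of 752 cells, 545 passed the filter of more than 1000 and fewer than 5000 genes, 335 with the H3K27me3 antibody from 10 experiments and 210 with H3K4me3 from 6, at medians of 199766 and 104474 reads per cell. The 96 well barcodes recur, 80 of them in more than 1 experiment, but no cells were identical. Jak1 had a read in 197 cells (36.1%, Wilson 95% interval 32.2% to 40.3%), Id3 in 125 (22.9%), Smad1 in 85 (15.6%), Bmp4 in 83 (15.2%), Id1 in 74 (13.6%), Lifr in 67 (12.3%), Id2 in 47 (8.62%), Socs3 in 27 (4.95%) and Il6st in 17 (3.12%). That interval covers the sampling of cells only, not the spread between experiments. For example, Jak1 had a read in 10% of the distal cells of H3K27me3 experiment 8 and in 90.5% of those of experiment 5. Thinned to 20000 reads, which 497 cells allowed, the shares were 12.5% for Jak1, 10.7% for Id3 and 1.01% for Il6st. Reads carry no molecular identifiers, so they are not independent molecules.

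Levels differed widely between experiments. Summed over cells, Id3 had no read in 3 of 10 H3K27me3 experiments and reached 221 CPM in the highest, and Jak1 ran from 0.338 to 251 CPM. Those 3 were experiments 8, 9 and 10, with 62, 47 and 56 passing cells and 26614024, 17049351 and 10862830 reads. Lifr and Id2 had no read in them either, and Jak1 stood at 0.338, 0.645 and 0.644 CPM. The shares of cells given above include these experiments. In H3K4me3 the ranges were 0 to 91.9 CPM for Id3 and 1.36 to 110 CPM for Jak1. Hprt ran from 0 to 154 CPM in the H3K27me3 experiments and from 0 to 379 CPM in the H3K4me3 ones.

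The proximal and distal daughter cells were compared to ask whether localized Wnt3a sets these genes apart. In 14 experiments with at least 3 cells at each position, 533 cells gave 28 sums, and only Jak1, Id1, Id3 and Smad1 passed the filter on low counts. Jak1 was at 460 CPM in the proximal and 4.69 CPM in the distal cells of H3K27me3 experiment 3, but at 0 and 93.9 CPM in H3K4me3 experiment 2. Its log2 fold change, proximal over distal, was -0.14 ± 0.88 (adjusted p = 0.998). Id1 was at 16.2 CPM proximal and 232 CPM distal in H3K27me3 experiment 7 and at 19.6 and 204 CPM in H3K4me3 experiment 5, but at 78.7 and 1.05 CPM in H3K27me3 experiment 6. Over all experiments it stood at -1.59 ± 1.20 (adjusted p = 0.998), and Id3 stood at -0.41 ± 0.89. Smad1 stood at 0.00, with no usable SE since it was derived from a log2 fold change near 0 (by DESeq2 it was -0.19 ± 0.83), and was at 101 CPM proximal and 10.2 CPM distal in H3K27me3 experiment 6 but at 5.44 and 87.6 CPM in H3K4me3 experiment 5.

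Of the members under the filter, Lifr was lower in the proximal than in the distal cells in all 5 H3K4me3 experiments, at 1.07 against 53.2, 1.76 against 23.3, 2.91 against 58.9, 2.72 against 91.6 and 3.97 against 11.5 CPM, on 4 to 10 proximal reads each. In the H3K27me3 experiments it had at most 3 reads at either position in all but experiments 3 (81.0 CPM proximal, 0.18 distal) and 6 (0.286 CPM proximal, 2.28 distal). With the H3K4me3 experiments alone Lifr stood at -3.94 ± 1.29 (unadjusted p = 0.00917), which did not pass over the 4674 genes (adjusted p = 0.943). Bmp4 was higher in the proximal cells in 4 of those 5 experiments, at 4.13 ± 1.70 (adjusted p = 0.943). Of the others under the filter, Socs3 was higher in proximal cells in all but experiment 5 (0.544 CPM proximal, 2.29 distal). Id2 ran in both directions there, and Il6st had at most 3 reads at either position. The distal Lifr reads came from 5 (experiment 4) to 11 (experiment 3) cells. The share of all genes with 1 direction in all 5 experiments was not computed.

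**Figure D5:**
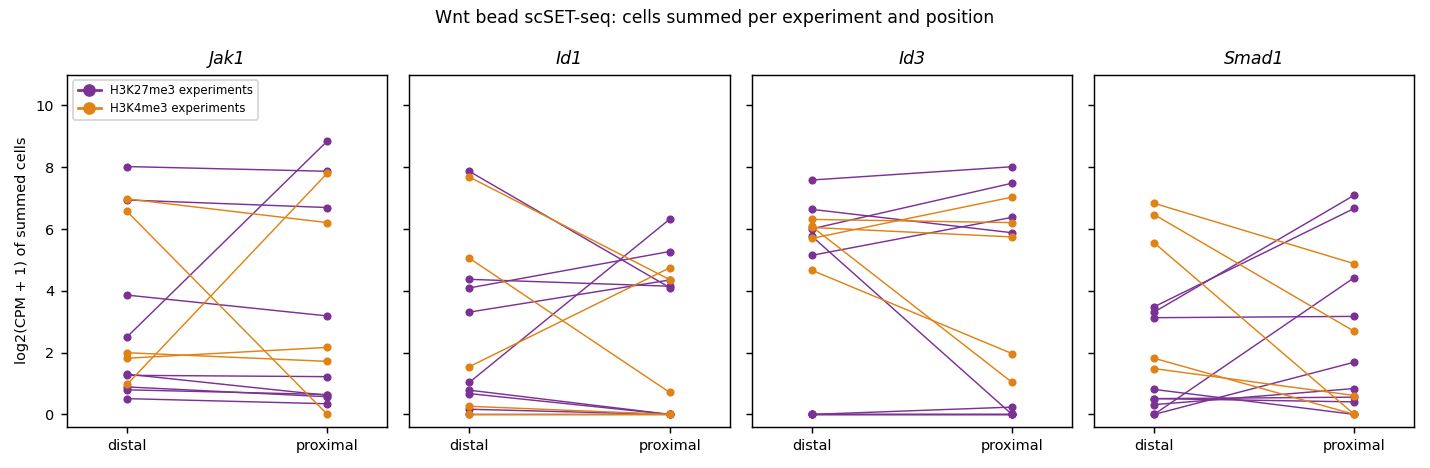
Summed level of the 4 members tested, as log2(CPM + 1) on the vertical axis, in distal and proximal cells; each line is 1 of 14 experiments. Over the experiments, lines run in both directions for all 4 genes, and the 5 H3K4me3 lines of Smad1 run downward.

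No gene of 4885 was called between positions (0%) by edgeR, with 180 at an unadjusted p under 0.05 and 58 called by DESeq2, none of them a member. A term for the antibody gave Smad1 a log2 difference of -5.64 ± 1.78 between the proximal-over-distal changes of H3K4me3 and H3K27me3 experiments (unadjusted p = 0.00438), which did not pass over all genes (adjusted p = 0.941). On simulated counts the design recovered 15.9% of 4-fold and 69.5% of 16-fold changes and 0% of 2-fold ones among its 4885 genes, so differences of the size seen in the bulk comparisons were mostly not detectable here.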

How the data were processed

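Expression was measured in bulk mESC libraries and in scSET-seq cells. The authors trimmed reads with Trim Galore 0.6.4, aligned them to mm9 with STAR 2.5.4b and deposited raw counts per gene, made with featureCounts 2.0.0 over exons without strand in bulk and with zUMIs over exons and introns, without molecular identifiers, in single cells. The authors' other tables were not used here. From the counts, Rn45s was removed (share given above), CPM was computed, and genes were tested with edgeR 4.0.16 (R 4.3.3; TMM, filterByExpr, quasi-likelihood test, Benjamini-Hochberg adjustment over all genes tested, called at an adjusted p under 0.05). The KO fit had 6 libraries (wild type, KO1, KO2), the temperature fit 16 with time as a factor, the antibody fit 12 with cell number as a factor, and the method fits 4 each. Single cells were summed per experiment and position, with the experiment as a block in the fit; positions came from the study's table of cells and matched odd and even wells in all 752 cells. SE is the log2 fold change over the root of F, which is not usable where that change is near 0. RPKM used union exon lengths of the mm9 annotation. Samples were grouped by their titles. Among the libraries tested, depth limits precision in the KO clones (935126 to 1124026 counts outside Rn45s) and in single cells. Each fit was tried on simulated counts holding 200 genes of known fold change. Alternatives were DESeq2 1.42.0, its size factors, no filter, Rn45s kept, limma 3.58.1 (single cells, mean log2 values), other reference libraries and leaving out libraries.

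The 10 members, the pathway lists and the marker lists were chosen with earlier results of these data known. All members are named in each comparison they were tested in, and from each pathway list up to 4 called genes with the largest differences. Same-numbered replicates were not treated as pairs. The wild-type libraries for the KO comparison are not given in the sources used here, and those with the same antibody and the most cells were taken. The labels give no cell number for the KO libraries, so the input of the groups may differ. Chromatin libraries were not analysed here.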

Additional observations from a re-analysis of the deposited data

Results flagged for a closer look

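Between the KO clones, Stat3 (KO1 over KO2, -1.001 ± 0.24 on the log2 scale, adjusted p = 0.00828) and Id1 (-1.76 ± 0.47, adjusted p = 0.0162) differed by edgeR's quasi-likelihood test, in 2 of 2 libraries each way. Each call was lost in a fit that left out a KO1 library, and that of Id1 also with DESeq2, as given above. Id1 rested on 3 and 12 reads in KO1.

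Of 28 groups tested (each member in the 4 KO libraries and in the single-cell experiments of either antibody), 8 had a sample that stood apart from the rest, and all 8 were single-cell groups. The flag was the Dixon ratio, the gap to the next value over the range. Its rate of about 1 group in 20 by chance holds for normally spread values only. Experiments without a read were frequent here (Il6st in 7 of 10 with H3K27me3), so the 8 flags are not a count beyond chance. For Lifr it was H3K4me3 experiment 1, at 13170 CPM with 46.0 CPM the next highest, and H3K27me3 experiment 3, at 36.4 CPM with 6.87 the next. That H3K4me3 experiment had only 4 passing cells, with 28984 reads of Lifr, and was not in the position test. For Id1 it was H3K27me3 experiment 7, at 147 CPM with 64.4 the next, and H3K4me3 experiment 5, at 110 CPM (109.6) with 15.8 the next. In the H3K27me3 experiments it was also Il6st in experiment 7 (7.75 CPM, next 0.0913), Socs3 in experiment 3 (104 CPM, next 5.50), Bmp4 in experiment 1 (146 CPM, next 8.25) and Id2 in experiment 6 (73.3 CPM, next 22.0).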

How the results depend on the processing

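Of 755 values of single members under alternatives, 689 kept their direction and their side of the threshold or, where neither value passed, moved by less than 1 SE, 26 lost their call, 3 gained one, 18 uncalled values changed sign by more than 1 SE and 19 reversed. In the KO comparison, with other wild-type libraries, Lifr reversed to 0.81 (SET-seq without antibody), 1.44 (RNA of 300 ng) and 0.39 (all 8 libraries at 37 °C). Il6st reversed to -1.09 (37 °C, 5 min), -0.68 (300 ng) and -1.16 (all 37 °C). In the same order Id1 reversed to 6.74, 4.51 and 5.00, Id2 to 2.85, 2.10 and 2.35, and Id3 to 4.48, 3.29 and 4.25, and Id2 also to 0.49 against SET-seq without antibody. Id1 had no read in the 37 °C 5 min libraries, so its first value depends on the prior count. The 300 ng and the 8-library references were chosen after seeing the data. Lifr reversed to -0.17 at 5 min alone (temperature) and to 0.58 against 300 ng (SET-seq), and Bmp4 to -0.34 against 16 °C 5 min (ligation). The cause was not tested, beyond the change of libraries itself.

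Genes called for KO against wild type were 5454, but 3612 by DESeq2, 2857 at an unadjusted p under 0.05 with an absolute log2 fold change over 1, and 3607 to 5777 when leaving out libraries (members called 6 to 8). Between clones they were 1121, against 512, 664 and 311 to 1791, with 2 members, 1 by DESeq2 and 1 to 2 when leaving out libraries. At 5 min alone temperature gave 3367 genes and 3 members in place of 7370 and 6, with fewer samples. The antibody comparison gave 3 genes at 10000 cells, the ligation comparison 10765 against 16 °C 5 min in place of 7140, and the SET-seq comparison 3411 with 100 to 10000 cells in place of 5397. Positions gave 58 genes by DESeq2, 24 without the filter and 55 without the experiment block, and no member.

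Same-numbered libraries did not deviate together in every pair of groups (correlations of -0.071 to 0.020 in the KO fit, -0.061 to 0.375 for temperature, -0.063 to 0.078 for the antibodies, -0.034 for ligation and 0.175 for SET-seq, the last 2 from 1 pair each), so numbers were not taken to pair samples, although replicate numbers did group libraries in the Tn5 series. With the replicate block the KO comparison had 5107 genes and the same count of 7 members, the clones 824 and 2, temperature 7376 and 6, the antibodies 0 and 0, ligation 6524 and 9, and SET-seq 6003 and 8. Of 80 mean levels, 34 moved by more than 1 SD with Rn45s kept and 11 with TMM scaling, and all 9 shares of cells fell when thinned.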
